A study of Homo sapiens with 6 samples.

Results

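The epithelial-mesenchymal transition (EMT) core genes are 10 genes chosen by name: VIM, CDH1, CDH2, ZEB1, ZEB2, SNAI1, SNAI2, TWIST1, FN1 and EPCAM. They are 10 of the 61016 annotated genes to which the deposited transcripts were summed, and 8 of them held enough counts to be tested. RNA was sequenced from paclitaxel (PTX)-resistant MDA-MB-231, an established human line of triple-negative breast cancer. The cells had been stained for aldehyde dehydrogenase (ALDH) activity with the ALDEFLUOR assay and sorted into an ALDH+ fraction, labelled BCSC for breast cancer stem cells (n = 3 libraries), and an ALDH− fraction, labelled non-BCSC (n = 3 libraries). Both fractions carry the PTX resistance, so no parental, drug-sensitive cells enter the comparison, and the line is a single cancer model. The labels do not say whether the 3 libraries of a group came from separate sorts, so the p-values measure only the spread between these libraries. In bulk RNA, fewer cells of a type and less RNA per cell cannot be told apart.

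EMT is the program by which epithelial cells give up cell-cell junctions and gain a motile, matrix-producing state. Its transcription factors, of the ZEB, SNAI and TWIST families, bind E-box motifs and repress epithelial genes such as CDH1 (E-cadherin), while mesenchymal genes such as VIM (vimentin), FN1 (fibronectin) and CDH2 (N-cadherin) are used. In breast cancer, EMT is studied alongside stem-like traits and drug resistance, and MDA-MB-231 is widely used as a line of mesenchymal character. The comparison asks whether the ALDH+ and ALDH− fractions of this resistant line differ in these genes.

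None of the 8 tested EMT core genes was called different between BCSC and non-BCSC. A gene was called at a Benjamini-Hochberg adjusted p under 0.05 with a log2 fold change beyond 1 (edgeR quasi-likelihood test over all genes). In the same test 8.85% of 20442 genes were called higher in BCSC and 11.3% were called lower. By adjusted p alone, with no minimum fold, 0 of the 8 members passed against 29.9% of all genes. At an unadjusted p under 0.05 there were 2 of the 8, CDH2 and ZEB2. The share of all genes at that threshold is not given, but it cannot be under 29.9%. DESeq2 called 0 of the 8, against 8.72% of all genes called higher and 17.2% called lower. The groups did not overlap for 2 of 8 members (25%), CDH2 and CDH1, against 52.1% of all genes tested. The median log2 fold change (BCSC over non-BCSC) was 0.27 over the 8 members and −0.05 over all genes, and 6 of the 8 were positive.

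The libraries differed in 2 measures that move with the groups. Total counts were 15925943 to 21215352 in BCSC against 9898588 to 12263667 in non-BCSC, so that every BCSC library was deeper than every non-BCSC library. The floor for a gene at 0 was set at 3 counts, or 0.141 to 0.303 CPM of the library total (all other CPM use scaled library sizes), and this limit covers counting error only. The 391 olfactory receptor genes, which are known from sensory neurons, served as a measure of background. They held 1.03, 1.10 and 3.19 counts per kb in BCSC against 8.33, 10.1 and 15.3 in non-BCSC. Among all calls, 43.96% were higher in BCSC, and this share became 71.4% with a correction for GC content and length, 62.3% with the olfactory background removed and 33.7% in DESeq2.

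The line's label was checked against its markers. VIM, CD44 and EGFR were read at 97.1 to 4646 TPM (counts per transcript length, scaled to a common total) in BCSC and at 88.5 to 4191 in non-BCSC. The hormone receptor genes ESR1 and PGR stayed at or under 10.7 TPM in every library, and ERBB2 lay between 40.5 and 71.7 TPM. PGR was called lower in BCSC, with 11, 5 and 23 counts against 88, 175 and 199 in non-BCSC. Its log2 fold change was −4.19 (SE 0.64, adjusted p = 0.00218 in edgeR). In non-BCSC it stood at 1.30, 2.25 and 1.60 times the olfactory receptor rate. The summed levels of markers of other cell types were lower in BCSC. The 5 fibroblast markers summed to 4.27 to 9.46 TPM in BCSC against 14.3 to 45.8 in non-BCSC, with DCN and LUM called lower. The 5 leukocyte markers summed to 4.65 to 8.17 and 13.2 to 28.1 TPM, with PTPRC called lower and CD68 called higher, and CD3E, CD79A and CD14 too sparse to test. In non-BCSC, PTPRC stood at 6.10 to 10.4 times the olfactory receptor rate, and the other leukocyte markers stayed under that rate. The 3 endothelial markers on file summed to 22.0 to 33.4 and 41.7 to 66.1 TPM, with CDH5 called lower. In non-BCSC, CDH5 stood at 8.56 to 35.0 times the olfactory receptor rate, VWF at 0.068 to 1.34 times and KDR at 1.10 to 3.11 times. KDR, one of these 3, lay the other way, at 17.0, 15.4 and 16.5 CPM in BCSC against 8.68, 5.70 and 13.1 CPM in non-BCSC, and was not called (log2 fold change 0.83, SE 0.34, adjusted p = 0.0882 in edgeR). Their part in the results was not tested. The identity of the line was not tested beyond these genes, the levels of CDH2 and TWIST1 were not compared with other preparations of it, and whether the olfactory receptor counts come from DNA was not tested.

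**Figure D1:**
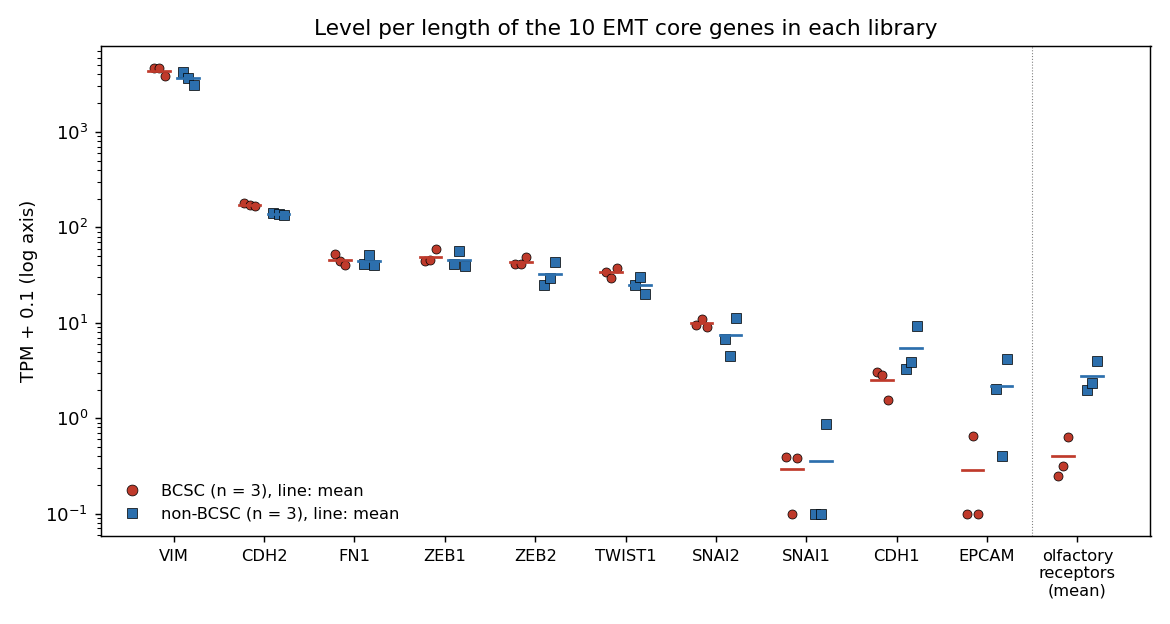
Level of each EMT core gene in each library, as TPM plus 0.1 on a log axis, with BCSC libraries as circles, non-BCSC libraries as squares and group means as lines. VIM stands at the top in both groups, and in non-BCSC EPCAM and SNAI1 lie within or below the range of the mean olfactory receptor level (1.90 to 3.91 TPM), which is plotted at the right, except for 1 EPCAM library at 4.03 TPM.

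Per length, the members fell into the same broad order in both fractions. In BCSC, VIM had a median of 4642 TPM, followed by CDH2 (171), ZEB1 (45.0), FN1 (44.5), ZEB2 (41.2), TWIST1 (33.7), SNAI2 (9.35), CDH1 (2.76), SNAI1 (0.288) and EPCAM (0). The ranges of ZEB1, FN1 and ZEB2 overlapped one another, as did those of SNAI1 and EPCAM, and the other neighbours were apart. In non-BCSC, the medians were 3673 for VIM, 138 for CDH2, 41.2 for ZEB1, 41.2 for FN1, 29.2 for ZEB2, 24.9 for TWIST1, 6.59 for SNAI2, 3.74 for CDH1, 1.90 for EPCAM and 0 for SNAI1. There VIM, CDH2 and ZEB1 were apart in that order and so were TWIST1 and SNAI2, while each of the other neighbouring pairs overlapped. CDH2 exceeded CDH1 by 59.7, 61.7 and 114 times per length in BCSC and by 45.1, 36.9 and 14.7 times in non-BCSC. These ratios depend on the transcript to which CDH1 counts were assigned. It was CDH1-205 (2759 bases) in non-BCSC replicate 3 and CDH1-201 (4811 bases) in non-BCSC replicates 1 and 2. CDH1 in non-BCSC also stood at only 1.61 to 2.30 times the mean olfactory receptor rate, so the ratios are not read as a cadherin shift.

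VIM (chromosome 10, 17270240 to 17279592, plus strand, GRCh37), which encodes the intermediate filament vimentin, was the most abundant member. By mean TPM it ranked 5 among all annotated genes in BCSC against 12 in non-BCSC. It held 3707, 3540 and 2930 CPM in BCSC against 3302, 2712 and 2303 CPM in non-BCSC. The groups overlapped, since BCSC replicate 3 lay under non-BCSC replicate 1. The log2 fold change was 0.29 (SE 0.14, 95% interval −0.02 to 0.60, adjusted p = 0.139 in edgeR), an interval that leaves out a fold of 2 in either direction.

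CDH2 (chromosome 18, 25512843 to 25757910, minus strand), the N-cadherin gene whose product joins mesenchymal and neural cells, was the next most abundant member per length. Its CPM were 250.2, 253 and 232 in BCSC (mean 245 ± 11.7, SD, n = 3) and 223, 198 and 194 in non-BCSC (205 ± 15.5, SD, n = 3). All 3 BCSC libraries lay above all 3 non-BCSC libraries. The difference was small, with a log2 fold change of 0.26 (SE 0.10, 95% interval 0.03 to 0.48), and it did not pass the test (adjusted p = 0.0802 in edgeR).

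FN1 (chromosome 2, 216225163 to 216300796, minus strand) encodes fibronectin, a matrix glycoprotein that mesenchymal cells secrete. It held 157, 120 and 99.8 CPM in BCSC against 120, 106 and 101 CPM in non-BCSC. BCSC replicate 1 was the highest library and BCSC replicate 3 the lowest, so the non-BCSC values lay within the BCSC range. The log2 fold change was 0.21 (SE 0.17, 95% interval −0.16 to 0.58, adjusted p = 0.369 in edgeR), and 0.01 without BCSC replicate 1.

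Among the transcription factors, the zinc-finger repressors ZEB1 and ZEB2 were read at similar levels. ZEB1 (chromosome 10, 31607424 to 31818742, plus strand) held 81.3, 80.7 and 78.4 CPM in BCSC against 81.4, 95.3 and 74.4 CPM in non-BCSC. The BCSC values lay within the non-BCSC range, with a log2 fold change of −0.06 (SE 0.13, 95% interval −0.36 to 0.23, adjusted p = 0.739 in edgeR). ZEB2 (chromosome 2, 145121931 to 145278624, minus strand) held 72.8, 82.4 and 89.1 CPM in BCSC against 43.6, 38.3 and 75.0 CPM in non-BCSC. Only non-BCSC replicate 3 reached the BCSC range, where it lay above BCSC replicate 1. The log2 fold change of ZEB2 was 0.64 (SE 0.24, 95% interval 0.11 to 1.17, adjusted p = 0.0663 in edgeR). Without non-BCSC replicate 3, ZEB2 was called higher, at 1.01 (adjusted p = 0.00901), and it was the only member whose call turned on a single library.

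SNAI2 (chromosome 8, 49830157 to 49834299, minus strand), which encodes the zinc-finger repressor Slug, was sparse. Its counts were 176, 143 and 136 in BCSC against 70, 41 and 101 in non-BCSC. Scaled for depth, non-BCSC replicate 3 (9.61 CPM) lay above all 3 BCSC libraries (8.16 to 9.26 CPM), and the other non-BCSC libraries, at 5.73 and 3.60 CPM, lay below them. The log2 fold change was 0.46 (SE 0.42) with a wide 95% interval of −0.49 to 1.41 (adjusted p = 0.436 in edgeR). It was 0.91 without non-BCSC replicate 3 and 0.22 without non-BCSC replicate 2, and was not called in either (adjusted p = 0.148 and 0.703).

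TWIST1 (chromosome 7, 19060614 to 19157259, minus strand), a basic helix-loop-helix factor, held 16.5, 16.8 and 19.6 CPM in BCSC against 12.04, 17.4 and 10.6 CPM in non-BCSC. Non-BCSC replicate 2 fell within the BCSC range and the other two below it. The log2 fold change was 0.40 (SE 0.28, 95% interval −0.22 to 1.02, adjusted p = 0.294 in edgeR).

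SNAI1 (chromosome 20, 48599517 to 48605423, plus strand), which encodes Snail, was at the floor. Its counts were 4, 0 and 3 in BCSC against 0, 0 and 5 in non-BCSC, and it did not enter the test. At this depth no difference in SNAI1 was detectable.

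The epithelial members were the lowest apart from SNAI1. CDH1 (chromosome 16, 68771195 to 68869440, plus strand), the E-cadherin gene and the classical target of the ZEB and SNAI repressors, held 73, 78 and 43 counts in BCSC against 73, 78 and 97 in non-BCSC. Scaled for depth, these were 3.57, 5.05 and 2.58 CPM in BCSC against 5.98, 6.84 and 9.23 CPM in non-BCSC, and each BCSC library lay below each non-BCSC library. The log2 fold change was −0.98 (SE 0.45, 95% interval −1.99 to 0.04), and it did not pass the test (adjusted p = 0.129 in edgeR). EPCAM (chromosome 2, 47572297 to 47614740, plus strand), which encodes an epithelial adhesion molecule, held 0, 5 and 0 counts in BCSC against 14, 2 and 19 in non-BCSC, and was too sparse to test.

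These low values were close to the background of the non-BCSC libraries. Counts of CDH1 per length were 23.5, 14.7 and 2.80 times the mean olfactory receptor rate in BCSC, but 1.82, 1.61 and 2.30 times that rate in non-BCSC. EPCAM stood at 0, 2.97 and 0 times the olfactory receptor rate in BCSC against 1.098, 0.129 and 1.01 times in non-BCSC. SNAI2 stood at 17.2 to 73.7 times that rate in BCSC against 1.86 to 3.80 times in non-BCSC, whereas VIM stood at 780 times or more in every library. With the olfactory receptor rate removed from each library, the log2 fold change of CDH1 was −0.88 (adjusted p = 0.312 in edgeR). That of CDH2 became 0.03, that of VIM 0.05 and that of FN1 0.01 (adjusted p = 0.84, 0.791 and 0.976). That fit filtered and scaled the libraries anew, over 16514 genes against 20442 in the main fit. A change of scaling can move genes far above the background, such as VIM. How much of these shifts came from the new scaling was not tested.

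**Figure D2:**
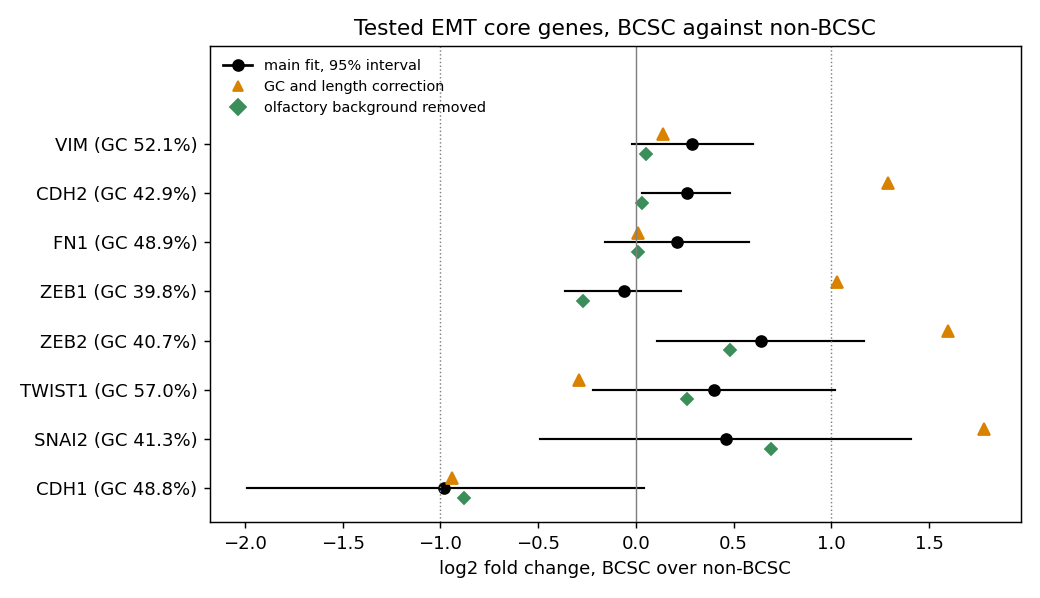
Log2 fold change (BCSC over non-BCSC) of the 8 tested members, with the 95% interval of the edgeR fit in black, the value after GC and length correction as triangles and the value with the olfactory background removed as diamonds. Dotted lines mark a fold of 2. The 4 members of lowest GC content, ZEB1, ZEB2, SNAI2 and CDH2, move past the right-hand line under the GC and length correction.

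The fold changes of the members moved with a correction for GC content and length. The median GC content of the genes tested was 44.8%, and 4 tested members lay below it: ZEB1 (39.8%), ZEB2 (40.7%), SNAI2 (41.3%) and CDH2 (42.9%). When log counts were corrected for GC content and length in each library, these 4 were called higher, against 20.9% of all genes called higher in that fit. Their log2 fold changes became 1.03 for ZEB1, 1.60 for ZEB2, 1.78 for SNAI2 and 1.29 for CDH2 (adjusted p = 0.00827, 0.000559, 0.00653 and 0.00225 in edgeR), while the median of all genes moved from −0.05 to 0.29. TWIST1, the tested member richest in GC (57.0%), moved the other way, from 0.40 to −0.29 (adjusted p = 0.53). With GC content and length taken as means over annotated transcripts, an alternative added after the data were seen, SNAI2 was no longer called (0.99, adjusted p = 0.0686 in edgeR). Which of these fits is nearer to the RNA levels was not tested.

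The file assigns counts to transcripts, and 96 of the 145 annotated transcripts of the 10 genes had counts. Of the 33 tested, 2 were called higher, both transcripts of ZEB2, and 0 lower in edgeR, where 0.593% of 46176 transcripts were called higher and 0.191% lower. At an unadjusted p under 0.05 there were 5 higher and 0 lower. No share over all transcripts is given for that threshold, so this split gives no direction for the members. DESeq2 called 5 higher (VIM-203, VIM-207, VIM-210, ZEB2-224 and ZEB2-226) and 0 lower. Of all 46176 transcripts it called 7.456% higher and 8.455% lower. ZEB2-226 held 747, 697 and 352 counts in BCSC and 0 in each non-BCSC library (adjusted p = 0.0467 in edgeR). That is 137-fold higher when each non-BCSC library is set at a floor of 3 counts. ZEB2-224 held 261, 231 and 238 counts in BCSC and 0 in each non-BCSC library, 55.8-fold higher with that floor (adjusted p = 0.0471). With 0 counts in non-BCSC, both passed the filter on low counts through BCSC alone. The floor covers counting error and not the assignment of reads to transcripts, so neither fold is a lower bound on a change in RNA. Summed over its transcripts, ZEB2 had a log2 fold change of 0.64 (adjusted p = 0.0663 in edgeR). Another transcript, ZEB2-235, held 50, 31 and 436 counts in BCSC against 304, 236 and 275 in non-BCSC, with a log2 fold change of −1.17 (SE 1.08, adjusted p = 0.677). With any 1 library left out neither was called (adjusted p = 0.0801 to 0.233 for ZEB2-226 and 0.0855 to 0.233 for ZEB2-224). Of those 6 fits, 5 called 0 transcripts of any gene and the other, without non-BCSC replicate 1, called 26 higher and 1 lower, so they do not bear on the ZEB2 transcripts in particular.

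ZEB2-235 carries 75 coding bases at the start of the longest coding exon that ZEB2-226 and ZEB2-224 lack, on the minus strand at chr2:145157838-145157912 (GRCh37). The stretch is shown because ZEB2-235 alone carries it among the ZEB2 transcripts that use this exon start or the shorter one, against 17 without. The other ZEB2 transcripts on file were not searched for it. The stretch and the fibronectin exons given further on were picked after the values were seen, so no test is given.
ZEB2-235 stretch: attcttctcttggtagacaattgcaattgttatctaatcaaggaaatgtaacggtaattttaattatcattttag
Of the counts on ZEB2 transcripts that use this exon start or the shorter one, the form with the stretch took 4.39%, 3.13% and 38.4% in BCSC against 97.4%, 95.6% and 52.3% in non-BCSC. The groups did not overlap, but BCSC replicate 3 and non-BCSC replicate 3 lay between the rest. The shares rest on the authors' assignment of reads to transcripts, not on reads counted over the stretch, which were not analysed here.

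**Figure D3:**
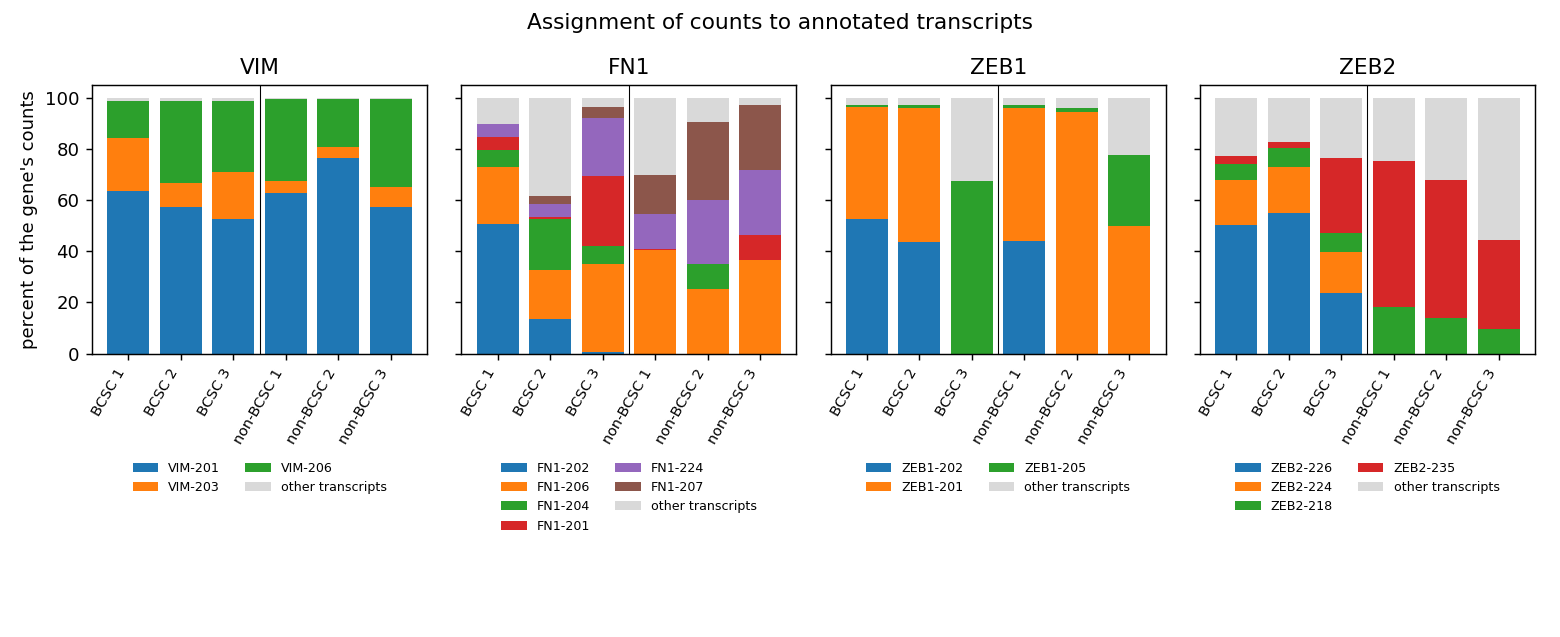
Percent of each gene's counts assigned to its main annotated transcripts in each library, with BCSC libraries left and non-BCSC libraries right of the line in each panel and all remaining transcripts in grey. ZEB2-226 and ZEB2-224 appear in the 3 BCSC libraries only, and ZEB1 is assigned to ZEB1-205 in BCSC replicate 3 (67.4%) where the other BCSC libraries have ZEB1-202 and ZEB1-201.

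Such switches also occurred between libraries of one group. ZEB1-201 held 725 and 652 counts in BCSC replicates 1 and 2 and 0 in replicate 3, where ZEB1-205, a retained-intron transcript, held 880. All 97 CDH1 counts of non-BCSC replicate 3 were assigned to CDH1-205, a transcript with no defined coding sequence, whereas CDH1-201, the full coding transcript, held all CDH1 counts of non-BCSC replicates 1 and 2. The common biological coefficient of variation was 1.02 for transcripts and 0.453 for gene sums.

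Within VIM, the coding transcript VIM-201 took 63.7%, 57.2% and 52.7% of the gene's counts in BCSC against 62.6%, 76.5% and 57.3% in non-BCSC. VIM-203, annotated as subject to nonsense-mediated decay, took 20.4%, 9.40% and 18.3% in BCSC against 4.72%, 4.16% and 7.65% in non-BCSC, and the groups did not overlap. Its log2 fold change was 1.96 (SE 0.36, adjusted p = 0.0702 in edgeR), while DESeq2 called it higher (adjusted p = 0.00091).

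FN1 carries 2 well-known alternative exons, extra domain A and extra domain B, each of which encodes a fibronectin type III repeat and is common in matrix-producing and embryonic tissues. They are shown as the annotated sequence whose inclusion separates the FN1 transcripts, from chr2:216245534-216245803 and chr2:216257654-216257926 on the minus strand (GRCh37).
FN1 extra domain A: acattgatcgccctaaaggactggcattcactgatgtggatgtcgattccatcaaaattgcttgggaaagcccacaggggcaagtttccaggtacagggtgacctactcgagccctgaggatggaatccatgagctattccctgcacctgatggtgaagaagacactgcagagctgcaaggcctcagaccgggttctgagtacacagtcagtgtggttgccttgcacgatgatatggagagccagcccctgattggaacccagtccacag
FN1 extra domain B: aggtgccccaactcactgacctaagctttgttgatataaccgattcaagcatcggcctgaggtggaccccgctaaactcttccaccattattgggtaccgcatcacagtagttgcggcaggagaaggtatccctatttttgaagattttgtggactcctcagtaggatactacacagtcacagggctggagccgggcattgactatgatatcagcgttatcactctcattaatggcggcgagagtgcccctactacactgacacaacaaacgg
Transcripts with extra domain A took 87.4%, 48.6% and 84.6% of the counts on FN1 transcripts that span the exon in BCSC, and 47.9%, 38.4% and 64.6% in non-BCSC. BCSC replicate 2 fell within the non-BCSC range, so the groups overlapped. Transcripts with extra domain B took 10.1%, 0.577% and 36.95% in BCSC against 0.0805%, 0% and 13.4% in non-BCSC, and these also overlapped. FN1-202, which has extra domain A, held 1627, 253 and 9 counts in BCSC and 0 in each non-BCSC library, and was not tested.

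Genes that overlap a member can share its reads, because strand use in the counting is not stated. ZEB1-AS1, an antisense transcript of ZEB1, held 83 to 101 counts in BCSC against 80 to 97 in non-BCSC, with a log2 fold change of −0.56 (SE 0.36, adjusted p = 0.261 in edgeR). VIM-AS1 held 38, 165 and 26 counts in BCSC against 33, 2 and 13 in non-BCSC (log2 fold change 1.76, SE 1.05, adjusted p = 0.224), which is 0.101% of the counts of VIM over all libraries. The other genes beside a member with a mean of at least 10 counts were ENSG00000234961 at VIM (−0.19, adjusted p = 0.878), ENSG00000279166 at ZEB2 (0.34, adjusted p = 0.681), and 3 that were too sparse to test. These 3 were ENSG00000274578 at CDH2 (16, 11 and 29 counts in BCSC against 0, 0 and 4 in non-BCSC), ENSG00000232821 at TWIST1 (0 counts in each BCSC library and 0, 23 and 38 in non-BCSC) and EPCAM-DT (0, 11 and 10 counts in BCSC against 30, 6 and 15 in non-BCSC). EPCAM-DT, which starts beside EPCAM on the opposite strand, thus held more counts than EPCAM in 4 of 6 libraries.

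The E-box that ZEB and SNAI factors bind, CACCTG or its reverse complement CAGGTG, was searched in the 250 bases before annotated starts (RefSeq, GRCh38.p14). It occurred in 2 of 7 windows of ZEB1 and in none of the windows of VIM (1 window), CDH2 (2), ZEB2 (1) and FN1 (1). The share over all 35116 windows was 17.5%, and so few windows cannot show a difference from it. CDH1, SNAI1, SNAI2, TWIST1 and EPCAM were not searched here.

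Beyond the core, 5 lists of EMT-linked genes were compared, 67 genes of which 49 were tested. In BCSC 5 were called higher (10.2%, against 8.85% of all genes) and 4 lower (8.16%, against 11.3%). Their median log2 fold change was −0.04, against −0.05 over all genes.

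Among 12 other EMT transcription factors, 9 were tested, 1 was called higher and 1 lower. HMGA2, an architectural chromatin protein of embryonic cells, rose from 54.8, 73.7 and 66.2 CPM in non-BCSC to 235, 261 and 275 CPM in BCSC. Its log2 fold change of 1.98 (SE 0.13, adjusted p = 6.05e-05 in edgeR) stayed between 1.79 and 2.59 under every alternative. KLF8, a zinc-finger factor, was called lower on few counts, 13, 30 and 12 in BCSC against 38, 48 and 81 in non-BCSC (log2 fold change −2.19, SE 0.74, adjusted p = 0.0492), and this call was lost when any 1 library was left out (adjusted p = 0.0554 to 0.164). Its counts per length in non-BCSC, 0.509, 0.530 and 0.591 times the olfactory receptor rate, lay under that background, and with the background removed it did not enter the test. TCF4 and SOX4 passed the adjusted p without the fold, at −0.35 and −0.44 (adjusted p = 0.0325 and 0.0347), and were named after their values were seen. FOXC2 was at 0 in all 6 libraries.

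Of 20 mesenchymal effectors, 18 were tested, 4 were called higher and 2 lower. TNC, which encodes the matrix protein tenascin C, rose from 199, 161 and 163 CPM in non-BCSC to 857, 710 and 508 CPM in BCSC (log2 fold change 1.99, SE 0.18, adjusted p = 0.00023 in edgeR). THY1, a cell-surface glycoprotein, rose by 1.18 on the log2 scale (SE 0.22, adjusted p = 0.00567), and MMP2, a gelatin-degrading metalloprotease, by 1.03 (SE 0.24, adjusted p = 0.0131). LOX, the collagen-crosslinking lysyl oxidase, fell from 632, 776 and 530 CPM in non-BCSC to 160, 237 and 203 CPM in BCSC (log2 fold change −1.69, SE 0.17, adjusted p = 0.000391). POSTN, which encodes the matrix protein periostin, was called lower on 4, 12 and 19 counts in BCSC against 67, 39 and 134 in non-BCSC (−3.35, SE 0.81, adjusted p = 0.0145). Counts of POSTN per length stood at 3.44, 6.29 and 2.51 times the olfactory receptor rate in BCSC against 3.70, 2.11 and 5.41 times in non-BCSC. With the background removed POSTN was still called lower (−3.64, adjusted p = 0.0422 in edgeR). The list of mesenchymal effectors shares COL1A1 with the fibroblast markers.

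Single libraries carried some of these calls. THY1 was not past the fold without BCSC replicate 1 (0.95), MMP2 without BCSC replicate 1 (0.86) or non-BCSC replicate 3 (0.88), and POSTN missed the adjusted p without non-BCSC replicate 3 (−2.64, adjusted p = 0.0696 in edgeR). MMP2 also lay under the fold in DESeq2 (0.94) and with the background removed (0.90), as did THY1 with the background removed (0.98). With the GC and length correction THY1, MMP2, LOX, POSTN and KLF8 were not called, at 0.16, 0.18, −0.61, −1.66 and −1.19.

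**Figure D4:**
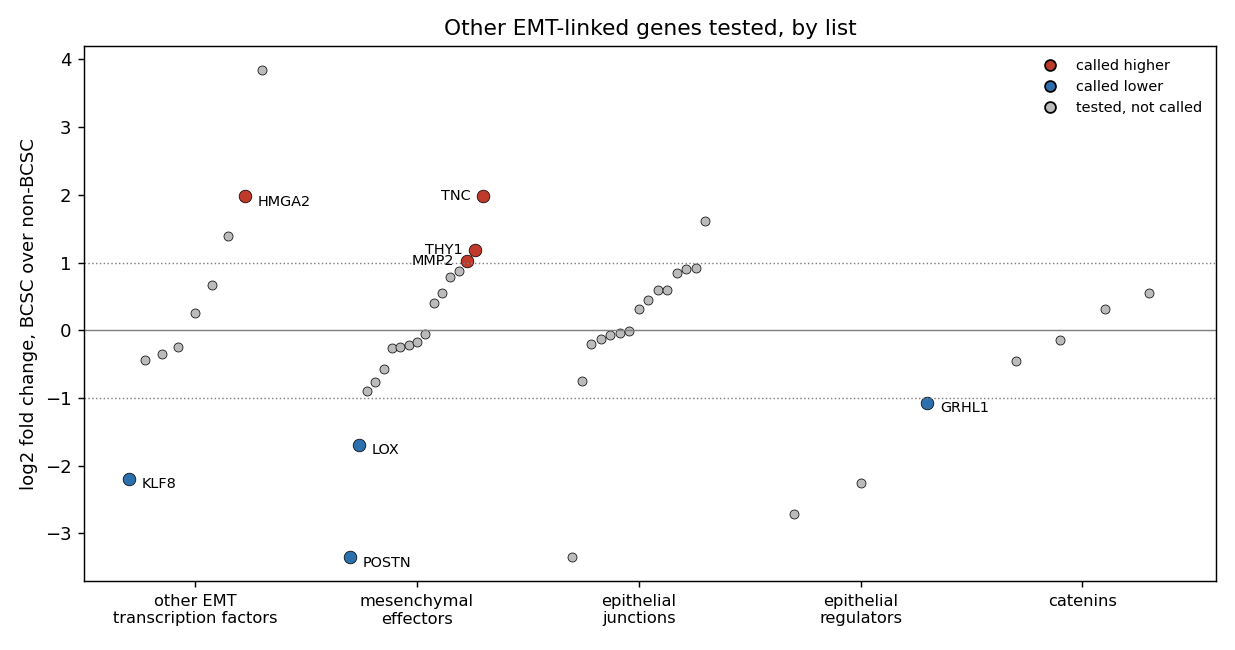
Log2 fold change (BCSC over non-BCSC) of the tested genes of the 5 other EMT-linked lists except 1 called gene that is not shown, 1 point per gene, ordered by value within each list, with called genes coloured and named. Dotted lines mark a fold of 2. The 8 calls shown, from the edgeR fit without corrections, lie in 3 lists, with none among junction genes or catenins.

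Calls of epithelial junction genes depended on the fit. Of 22 junction genes, 15 were tested and 0 were called by edgeR, while 6 passed an unadjusted p under 0.05, as did at least 29.9% of all genes. With the GC and length correction edgeR called 4 junction genes higher, CLDN1 (2.02, adjusted p = 0.00027), OCLN (1.66), DSG2 (1.52) and F11R (1.23), against 20.9% of all genes. DSC2, a desmosomal cadherin, was called lower by DESeq2 and by edgeR with RLE size factors, another scaling of depth (−3.44, adjusted p = 0.0485), or with no filter on low counts, and its counts per length in non-BCSC stood at 0.380 to 0.601 times the olfactory receptor rate. CLDN3 and CRB3 were at 0 in all libraries. CLDN1, which encodes the tight-junction protein claudin 1 and had one of the 2 highest levels per length in this list, held 304, 392 and 429 CPM in BCSC against 205, 217 and 178 CPM in non-BCSC. It passed the adjusted p but not the fold (log2 fold change 0.91, SE 0.14, adjusted p = 0.00239), and it was called without BCSC replicate 1 (1.04) and without non-BCSC replicate 2 (1.01). F11R was called higher without non-BCSC replicate 2 or 3 (1.15 without replicate 3), and without BCSC replicate 3 DSC2 was called lower and MUC1 higher. The other, PKP2, a desmosomal plakophilin, had a log2 fold change of −0.01 (SE 0.12, adjusted p = 0.958). Named after their values were seen, F11R (0.92), DSG2 (0.60) and OCLN (0.59) passed the adjusted p upward and DSP (−0.75), the desmosomal plaque protein, downward (adjusted p = 0.0187, 0.0113, 0.0393 and 0.00294 in edgeR).

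The epithelial regulators, which include splicing factors and the GRHL and OVOL factors that oppose EMT, were mostly too sparse. Of 9 genes 3 were tested, and 1 was called lower, GRHL1, at 9.88, 8.94 and 11.6 CPM in BCSC against 25.1, 13.9 and 24.6 CPM in non-BCSC (log2 fold change −1.07, SE 0.30, adjusted p = 0.0252 in edgeR). That call was lost without BCSC replicate 1 or 2 and without non-BCSC replicate 1 or 3 (adjusted p = 0.0793, 0.109, 0.0858 and 0.0858), and with the GC and length correction, at −0.62 (adjusted p = 0.107). MIR200CHG, the host gene of 2 members of the miR-200 family that target ZEB1 and ZEB2, was at 0 in all 6 libraries.

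The catenins link cadherins to the cytoskeleton. In the main edgeR fit 0 of the 4 tested were called, and 0 were called by DESeq2. At an unadjusted p under 0.05 in edgeR there were 2, a threshold that at least 29.9% of all genes passed. CTNNB1 (beta-catenin) held 475, 446 and 396 CPM in BCSC against 635, 560.2 and 598 CPM in non-BCSC, and passed the adjusted p below the fold (log2 fold change −0.45, SE 0.10, adjusted p = 0.0118). CTNND1 (p120-catenin), named after its values were seen, passed it upward (0.55, SE 0.12, adjusted p = 0.00865), and CTNNA1 had a log2 fold change of −0.15 (SE 0.12, adjusted p = 0.371). Under the GC and length correction CTNNB1 changed sign, to 0.32 (adjusted p = 0.313 in edgeR), and JUP was called lower. With that correction over annotated transcripts JUP was again called lower and CTNND1 was called higher. DESeq2 called 4 genes of the 5 lists higher and 5 lower, against 8.72% of all genes called higher and 17.2% called lower.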

How the data were processed

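Total RNA was sequenced as stranded (dUTP) libraries. Per transcript, the authors deposited whole-number estimated counts with no normalization. The labels name HISAT2, featureCounts, DESeq2 and hg38, while the study's methods name hg19; the table holds no coordinates, and those given are GENCODE 44 on GRCh37. Of 252618 transcripts, 249618 (98.8%) matched by identifier and were summed per gene; unmatched rows held 0.229 to 0.341% of counts. The annotation release and strand use in counting are not given in the sources used here.

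Groups came from sample titles. Genes and transcripts were tested in edgeR 4.0.16 (R 4.3.3; TMM, expression filter, robust quasi-likelihood fit, group only) over all 6 libraries. CPM use TMM library sizes. The test was tried on simulated data. Alternatives were RLE size factors, DESeq2 1.42.0, 2 other filters, a replicate block, each replicate left out, no minimum fold, a GC and length correction (loess, span 0.3) and removal of the olfactory receptor rate per kb. Libraries of a group differed beyond counting noise (chi-square per degree of freedom at least 15.2). 1 called gene of the other lists is counted but not reported here. Members and lists were chosen with earlier results of these data known. Named were all members, genes within 5 kb of them and transcripts holding 10% or more of a member's counts (for both, a mean of 10 counts or more), and per other list the 3 called higher and 3 lower with the smallest p or, with none called, the 2 with the highest TPM.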

Additional observations from a re-analysis of the deposited data

How the results depend on the processing

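Of 84 counts of calls recomputed under alternatives, 63 stayed within 1.5 times the reported count. Many of the 63 were 0 against a reported 0, for EMT core genes called higher or lower and EMT core transcripts called lower. A ratio has no meaning there, so 63 of 84 does not measure how stable the calls were. A count that stayed can hold other names. With the GC and length correction, the other EMT-linked genes called lower were COL1A1, ELF3, JUP, S100A4 and SOX4. The reported KLF8, GRHL1, LOX and POSTN were not among them. With at least 10 counts required in every library, VIM-203 and VIM-207 were the EMT core transcripts called higher. The called ZEB2 transcripts, at 0 in each non-BCSC library, cannot pass that filter. EMT core genes called higher became 4 with the GC and length correction, 3 with that correction over annotated transcripts, and 0 to 1 with each replicate left out; the GC and length correction also ended or made calls in the other lists. EMT core transcripts called higher became 5 in DESeq2 and 0 with each replicate left out. With the replicate block it became 0; that fit and 5 of the 6 without a replicate called 0 transcripts of any gene, so these counts do not bear on the members (under the block VIM and ZEB2 passed the adjusted p without the fold, at 0.014 and 0.0111, as they did with no filter, at 0.00171 and 0.000423, and KLF8 was not called under the block, at 0.0528, edgeR, while DSC2 was called lower, at 0.0169). The labels give no pairing: same-numbered libraries deviated together with r = 0.179, 0.0143 and 0.219, and BCSC replicate 2 correlated best with non-BCSC replicate 1 (0.0544). Other EMT-linked genes called higher became 9 and 11 with the 2 GC corrections, 3 with the background removed and 12 with no minimum fold. They became 3 to 7 with each replicate left out. Those called lower became 8 with no minimum fold and 1 to 4 with each replicate left out. The 2 GC corrections called 20.9% and 21.2% of all genes higher, and the background removal 10.8%. Of all genes, 29.9% passed in either direction with no minimum fold. The fits without a replicate called 4.055 to 9.295% of all genes higher and 4.818 to 12.75% lower. Except where the rule itself changed, the cause was not tested.

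The direction changed with the GC and length correction, first as planned and then over annotated transcripts, for ZEB1 (1.03 and 1.23), TWIST1 (−0.29 and −0.22), PKP2 (0.52 and 0.97), CTNNB1 (0.32 and 0.33), CTNNA1 (0.17 and 0.57), ENSG00000234961 (0.66 and 0.62), ZEB1-AS1 (0.44, planned only) and VIM (−0.12, annotated transcripts only). With no filter on low counts ZEB1 reached 0.01 and PKP2 0.06, with the background removed ENSG00000234961 reached 0.07, and with the replicate block CDH1-201 reached 0.78. With each replicate left out the ranges were −0.12 to 0.08 for ZEB1, −0.06 to 0.08 for PKP2, −0.23 to 0.02 for CTNNA1, −0.07 to 0.50 for VIM-206, −0.76 to 0.34 for CDH1-201, −2.90 to 3.97 for ZEB1-205, −0.30 to 0.01 for ZEB2-218, −0.35 to 0.11 for FN1-206, −0.53 to 0.12 for ENSG00000234961 and −0.02 to 0.76 for ENSG00000279166. Depth limits SNAI1 and EPCAM, which had at most 19 counts in a library.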
